A study of Mus musculus with 18 samples.

Results

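The 10 genes described here are Nfe2l2, which encodes the transcription factor NRF2, and 9 antioxidant genes known as its targets: Nqo1, Hmox1, Gclc, Gclm, Txnrd1, Srxn1, Slc7a11, Gsta4 and Gstm1. They were chosen by name and found as the rows of the expression table whose gene entry held the symbol, 10 of 51499 assembled loci. RNA was sequenced from mouse embryonic fibroblasts labelled Ago2+/+ or Ago2-/-, where AGO2 is the Argonaute protein that cuts target RNAs in RNA interference. Each genotype received the solvent DMSO, tunicamycin, an inhibitor of N-glycosylation in the endoplasmic reticulum (ER), or 500 nM of thapsigargin, an inhibitor of the pump that fills the ER with calcium. This gave 6 groups of 3 libraries, 18 in all. The groups labelled Ago2+/+ carry the name DCR1 in the library titles, for a reason that no source used here gives. The Ago2-/- line was checked by the study for loss of the AGO2 protein by western blot, and the lines were not authenticated. The values are FPKM (fragment counts normalised to transcript length and to the mapped total of a library), 1 pooled value per group, so neighbouring levels cannot be set against a spread between libraries, and no difference below was tested.

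The genotype labels could not be read from the level of Ago2. With the label Ago2+/+ its FPKM was 22.1 (DMSO), 5.75 (tunicamycin) and 17.0 (thapsigargin), and with the label Ago2-/- it was 5.61, 15.5 and 20.7. It was therefore lower in the labelled knockout under DMSO only, and no source used here gives the part of the gene removed. The labels of 4 libraries conflict on genotype, and 3 of these 4 are in groups labelled Ago2+/+. Over the 11929 loci that averaged 1 FPKM or more across the groups, 3 pairs of groups were closer than all others. Each joins a group labelled Ago2+/+ to one labelled Ago2-/- with a different treatment. Their Spearman rho lay between 0.977 and 0.985, against 0.876 to 0.906 in the other 12 pairs. One of the 3 is the pair of Ago2+/+ tunicamycin and Ago2-/- DMSO, the 2 groups in which Ago2 was low. The treatment labels could not be read from Hspa5 either, which encodes the ER chaperone BiP and is a marker of ER stress. Named after its values were seen, it was at 4808, 6746 and 5367 FPKM in Ago2+/+ DMSO, tunicamycin and thapsigargin. In the corresponding Ago2-/- groups it was at 7682, 5155 and 3677 FPKM, highest with the solvent. Every direction below holds for the labels of genotype and treatment as deposited.

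NRF2 is made continuously and, in unstressed cells, is bound by KEAP1 in the cytoplasm, which hands it to the CUL3 ubiquitin ligase for degradation. Electrophiles and oxidants modify KEAP1, and NRF2 then enters the nucleus, pairs with a small MAF protein and binds the antioxidant response element of its target genes. NRF2 is also a known substrate of the ER stress kinase PERK. The targets make glutathione and attach it to reactive compounds, reduce thioredoxin and oxidised peroxiredoxins, split heme and reduce quinones. Fibroblasts in culture use this programme, and SLC7A11 and HMOX1 are also known targets of ATF4, the factor made downstream of PERK.

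The genes lie apart on the genome (GRCm38, GENCODE M21 annotation). Nfe2l2 is on chromosome 2 from 75675513 to 75704641 (minus strand) and Srxn1 on the same chromosome from 152105516 to 152111376 (plus strand). Chromosome 3 carries Slc7a11 from 49892526 to 50443614 (minus strand), Gstm1 from 108012255 to 108017973 (minus strand) and Gclm from 122245557 to 122270732 (plus strand). Chromosome 8 carries Hmox1 from 75093621 to 75100589 (plus strand) and Nqo1 from 107388225 to 107403206 (minus strand). Chromosome 9 carries Gclc from 77754535 to 77794485 and Gsta4 from 78182774 to 78209349, both on the plus strand, and Txnrd1 is on chromosome 10 from 82833951 to 82897712 (plus strand). The gene body of Nfe2l2 holds a small nuclear RNA, that of Txnrd1 Eid3 on its own strand and 2 genes on the other, that of Gclm a pseudogene on its own strand and a transcript on the other, and that of Slc7a11 3 pseudogenes among 5 annotated genes. Of the 50-base stretches of the Gstm1 transcript, 23.1% also occur in transcripts of other genes, most often Gstm2-ps1 (17.3%), so fragments of Gstm1 could be split between copies. This share was 0.776% for Gclm, 0.698% for Slc7a11 and 0% for the other 7 genes.

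The promoters bear on these genes because NRF2 acts through the antioxidant response element, whose core is TGACNNNGC. This motif, or its reverse complement GCNNNGTCA, was searched on both strands in the RefSeq promoter windows of GRCm38.p6, which run from 250 bases before to 50 bases after each transcript start. Windows were found for 7 of the 10 genes, 10 windows in all, and none for Hmox1, Gclc and Gsta4. The motif stood in a window of 4 genes, where 14.0% of all 27025 gene symbols and 12.4% of all 32851 windows hold it. The sequences before the start are shown for Nfe2l2 (chr2:75704664-75704913, minus strand), Gclm (chr3:122245307-122245556, plus strand) and the second annotated start of Txnrd1 (chr10:82858956-82859205, plus strand), because they hold the match. For Srxn1, whose match follows the start, 29 bases around it are shown (chr2:152105542-152105570, plus strand). Capitals mark the match to the motif.
Nfe2l2: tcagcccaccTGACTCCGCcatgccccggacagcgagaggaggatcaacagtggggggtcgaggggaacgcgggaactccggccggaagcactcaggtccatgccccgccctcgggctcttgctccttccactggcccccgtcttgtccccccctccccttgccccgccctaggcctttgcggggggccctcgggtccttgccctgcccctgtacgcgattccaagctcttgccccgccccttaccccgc
Gclm: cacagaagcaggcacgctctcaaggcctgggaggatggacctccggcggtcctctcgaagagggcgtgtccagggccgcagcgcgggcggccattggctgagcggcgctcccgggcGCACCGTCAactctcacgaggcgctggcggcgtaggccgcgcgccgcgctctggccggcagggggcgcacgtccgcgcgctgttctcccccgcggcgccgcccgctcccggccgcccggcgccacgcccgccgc
Txnrd1: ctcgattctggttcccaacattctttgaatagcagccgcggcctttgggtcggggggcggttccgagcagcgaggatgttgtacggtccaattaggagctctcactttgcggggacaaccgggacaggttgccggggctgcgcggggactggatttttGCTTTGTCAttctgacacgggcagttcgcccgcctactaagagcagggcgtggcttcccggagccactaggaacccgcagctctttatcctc
Srxn1: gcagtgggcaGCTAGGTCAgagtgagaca
Counted from the transcript start, the match lies at bases -240 to -232 in Nfe2l2, -134 to -126 in Gclm, -92 to -84 in Txnrd1 and 28 to 36 in Srxn1. A match is a description of the letters, not evidence of binding, and NRF2 binding was not measured. Among the other genes of the pathway, 16 of 73 with a window (21.9%) hold the motif.

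Nfe2l2 itself stood at 43.3 FPKM with DMSO, 87.0 with tunicamycin and 37.2 with thapsigargin for the Ago2+/+ label, and at 97.5, 36.8 and 44.8 FPKM, in that order, for the Ago2-/- label. Ago2-/- DMSO and Ago2+/+ tunicamycin were the 2 high groups, and the other 4 lay together at less than 45 FPKM in each. The highest group was 2.65-fold over the lowest. These are mRNA levels, and the amount of NRF2 protein, which KEAP1 sets, was not measured.

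Among the enzymes that act on quinones and heme, Nqo1 and Hmox1 had different patterns. Nqo1, which encodes a quinone reductase and is a widely used readout of NRF2, was at 0.335 FPKM with DMSO, 4.95 with tunicamycin and 10.5 with thapsigargin for the Ago2+/+ label, and at 5.12, 10.6 and 0.763 FPKM, in that order, for the Ago2-/- label. Its levels fell into 3 pairs of like groups: Ago2+/+ thapsigargin with Ago2-/- tunicamycin at the top, Ago2+/+ tunicamycin with Ago2-/- DMSO between, and Ago2+/+ DMSO with Ago2-/- thapsigargin below 1 FPKM. The highest group was 31.6-fold over the lowest, and low levels such as the last pair carry the largest counting error, which cannot be computed without depth. Hmox1, which encodes the inducible heme oxygenase, was at 97.1 FPKM with DMSO, 206 with tunicamycin and 106 with thapsigargin for the Ago2+/+ label, and at 256, 111 and 135 FPKM, in that order, for the Ago2-/- label. Its 2 high groups were those of Nfe2l2, with a 2.64-fold range.

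Glutathione synthesis was covered from cystine import to the rate-limiting step. Slc7a11, the cystine importer, was at 7.45 FPKM with DMSO, 18.5 with tunicamycin and 12.2 with thapsigargin for the Ago2+/+ label, and at 26.3, 13.0 and 12.1 FPKM, in that order, for the Ago2-/- label. Ago2-/- DMSO was highest and Ago2+/+ DMSO lowest, 3.53-fold apart. Gclc, the catalytic subunit of glutamate-cysteine ligase, was at 18.5 FPKM with DMSO, 54.5 with tunicamycin and 23.0 with thapsigargin for the Ago2+/+ label, and at 60.5, 20.0 and 22.8 FPKM, in that order, for the Ago2-/- label. Its 2 high groups stood clear of the other 4, which lay between 18.5 and 23.0 FPKM. Gclm, the modifier subunit of the same enzyme, was at 579 FPKM with DMSO, 438 with tunicamycin and 409 with thapsigargin for the Ago2+/+ label, and at 674, 222 and 362 FPKM, in that order, for the Ago2-/- label. Ago2+/+ DMSO was second highest for Gclm, unlike Gclc, for which it was lowest. In FPKM, which are scaled for transcript length, Gclm was above Gclc in all 6 groups. The interval that the table gives for Gclm is shared by 8 of its entries, Dnttip2 and Bcar3 among them, whereas that of Gclc holds 1 entry. It is 285 kb long, where the annotated gene is 25.2 kb. The entry of Gclm itself also carries the Ensembl identifier of another gene, so its levels and ratios cannot be given to Gclm alone.

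Txnrd1 and Srxn1 serve the thioredoxin system. Txnrd1, the cytosolic thioredoxin reductase, was at 84.4 FPKM with DMSO, 211 with tunicamycin and 114 with thapsigargin for the Ago2+/+ label, and at 228, 104 and 86.4 FPKM, in that order, for the Ago2-/- label. Srxn1, the sulfiredoxin that repairs overoxidised peroxiredoxins, was at 28.4 FPKM with DMSO, 62.1 with tunicamycin and 17.5 with thapsigargin for the Ago2+/+ label, and at 81.6, 17.0 and 26.6 FPKM, in that order, for the Ago2-/- label. Both genes had the same 2 high groups. Srxn1 was lowest in Ago2-/- tunicamycin and Ago2+/+ thapsigargin, the pair in which Nqo1 was highest.

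The glutathione transferases Gsta4 and Gstm1 covered wide ranges. Gsta4, which conjugates the lipid peroxidation product 4-hydroxynonenal, was at 20.1 FPKM with DMSO, 87.7 with tunicamycin and 1.49 with thapsigargin for the Ago2+/+ label, and at 88.8, 2.76 and 26.4 FPKM, in that order, for the Ago2-/- label. It had the widest range of the 10 genes, 59.6-fold, and again 3 pairs of like groups, with the bottom pair being the top pair of Nqo1. Gstm1, a transferase of the mu class, was at 8.64 FPKM with DMSO, 55.3 with tunicamycin and 14.9 with thapsigargin for the Ago2+/+ label, and at 52.6, 21.6 and 9.43 FPKM, in that order, for the Ago2-/- label. Its 2 high groups were again Ago2+/+ tunicamycin and Ago2-/- DMSO, and the range was 6.40-fold.

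**Figure D1:**
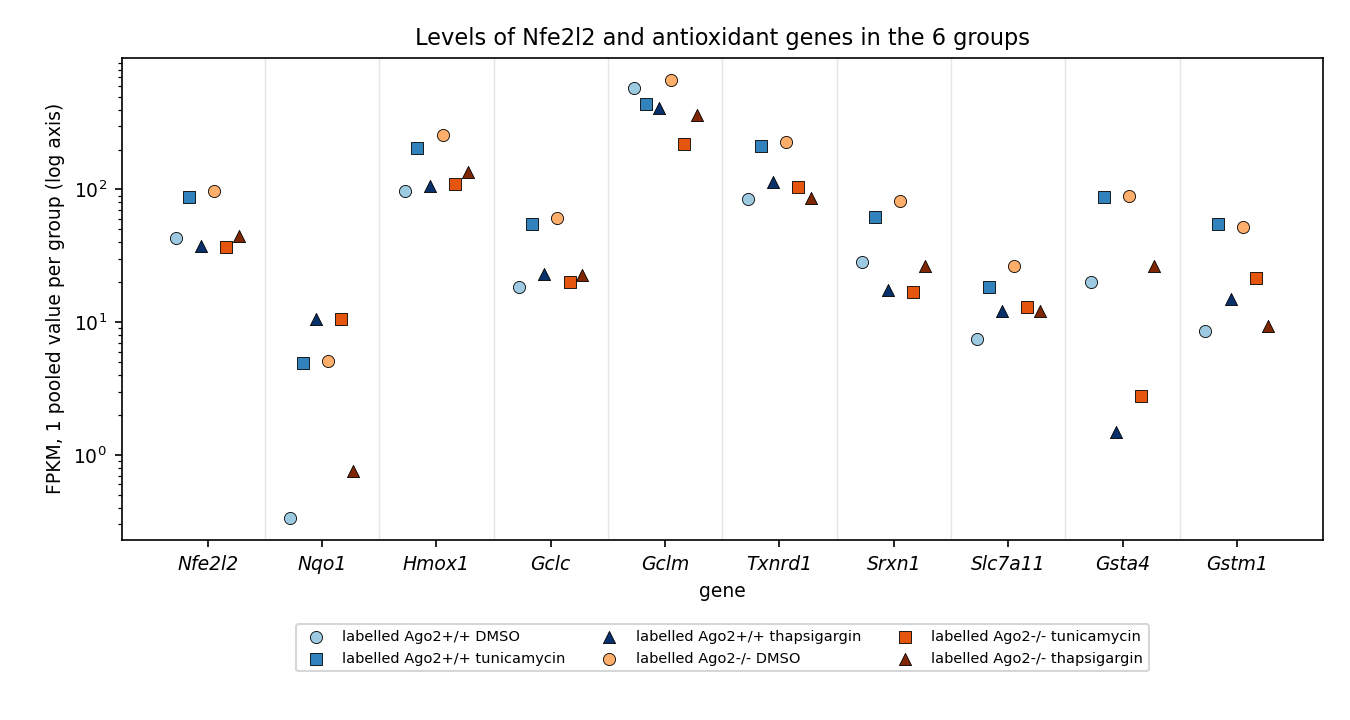
Pooled FPKM (vertical log axis) of the 10 genes (horizontal axis) in the 6 labelled groups, with 1 point per group and no error bars because the table holds no replicate values. Ago2+/+ tunicamycin and Ago2-/- DMSO are the 2 highest points for 8 of the 10 genes, while Nqo1 and Gclm depart from this.

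Ago2+/+ tunicamycin and Ago2-/- DMSO were the 2 highest groups for 8 of the 10 genes, where 26.6% of the 11929 loci had these 2 groups highest. This pattern was described after the values were seen. In 4 of the 8 genes the lower of the 2 was also at least 2-fold over each of the other 4 groups: by 3.32-fold in Gsta4, 2.44-fold in Gstm1, 2.37-fold in Gclc and 2.18-fold in Srxn1, where 3.5% of all loci met this. In Nfe2l2 it was 1.94-fold, in Txnrd1 1.85-fold, in Hmox1 1.53-fold and in Slc7a11 1.42-fold over the next group. Across the 6 groups, Pearson's r of log2 FPKM with Nfe2l2 was 0.986 for Srxn1, 0.969 for Gclc, 0.959 for Hmox1, 0.907 for Txnrd1, 0.865 for Gsta4, 0.827 for Gstm1, 0.805 for Slc7a11, 0.605 for Gclm and 0.11 for Nqo1. These are descriptions over 6 pooled values, the genes were measured in the same libraries, and the groups fall into 3 close pairs. Gsta4 and Gstm1, both transferases, correlated less with each other (0.483) than either did with Nfe2l2. In Ago2+/+ thapsigargin and Ago2-/- tunicamycin Gsta4 was at its lowest and Gstm1 intermediate.

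Tunicamycin was set against DMSO within each labelled genotype. The folds compare labelled groups, and an effect of blocked glycosylation was not tested. In the groups labelled Ago2+/+, 9 of the 10 genes were at least 2-fold higher under tunicamycin, where 9.95% of loci were. None was 2-fold lower, where 8.76% of loci were. The median log2 ratio of the 10 genes was 1.32, against 0.0088 over all loci. Nqo1 was 14.8-fold higher, Gstm1 6.40-fold, Gsta4 4.37-fold and Gclc 2.94-fold. The base of Nqo1 was 0.335 FPKM, and with a pseudocount of 1 FPKM its log2 ratio was 2.16 in place of 3.89. Nfe2l2 was just past the threshold at 2.01-fold, and Gclm was the exception with a log2 ratio of -0.40. In the groups labelled Ago2-/-, 9 of the 10 genes were at least 2-fold lower under tunicamycin, where 10.7% of loci were, and 1, Nqo1, was 2.06-fold higher, where 12% of loci were. With a pseudocount of 1 FPKM the log2 ratio of Nqo1 was 0.92, so that 0 genes were 2-fold higher. The median log2 ratio was -1.35. Gsta4 was 32.1-fold lower, Srxn1 4.79-fold, Gclm 3.04-fold and Gclc 3.03-fold, and Slc7a11 was nearest to the threshold at 2.02-fold.

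The change with tunicamycin thus had opposite signs in both labelled genotypes for 8 of the 10 genes. The share of all loci with opposite signs was not counted. Ago2+/+ tunicamycin and Ago2-/- DMSO were close over all loci (Spearman rho 0.985), so this count is not read as a trait of these genes. The log2 ratio in Ago2-/- minus that in Ago2+/+ was below -1 for all 10 genes, where 19.8% of the 11818 loci with such a difference were that low and 19.7% were above 1. It ran from -7.13 in Gsta4 to -1.20 in Gclm, with a median of -2.65. That of Nqo1 was -2.84, and -1.24 with the pseudocount. Gclm was lower under tunicamycin in both genotypes, and Nqo1 higher in both. No error can be given for these differences.

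Thapsigargin gave another picture in the groups labelled Ago2+/+. Only Nqo1 was at least 2-fold higher (31.3-fold), where 9.62% of loci were, and only Gsta4 was at least 2-fold lower (13.5-fold), where 8% of loci were. With a pseudocount of 1 FPKM the log2 ratio of Nqo1 was 3.11 in place of 4.97, and that of Gsta4 -3.08 in place of -3.75. The other 8 genes lay between log2 ratios of -0.70 (Srxn1) and 0.78 (Gstm1), and the median of the 10 was 0.22. In the groups labelled Ago2-/-, 8 of the 10 genes were at least 2-fold lower under thapsigargin, where 10.3% of loci were, and none was 2-fold higher, where 8.67% were. Nqo1 was 6.72-fold lower, Gstm1 5.58-fold, Gsta4 3.37-fold and Srxn1 3.06-fold. With the pseudocount the log2 ratio of Nqo1 was -1.80 in place of -2.75. Hmox1 (log2 -0.93) and Gclm (log2 -0.90) were lower by less than the threshold, and the median of the 10 was -1.40. The difference of the thapsigargin ratios between genotypes was below -1 for 6 genes, where 16% of 11819 loci were that low. It was above 1 for Gsta4 alone (2.0), where 15.1% of loci were that high. Nqo1 had the widest difference, -7.72. With the pseudocount these differences were 1.37 for Gsta4 and -4.90 for Nqo1.

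**Figure D2:**
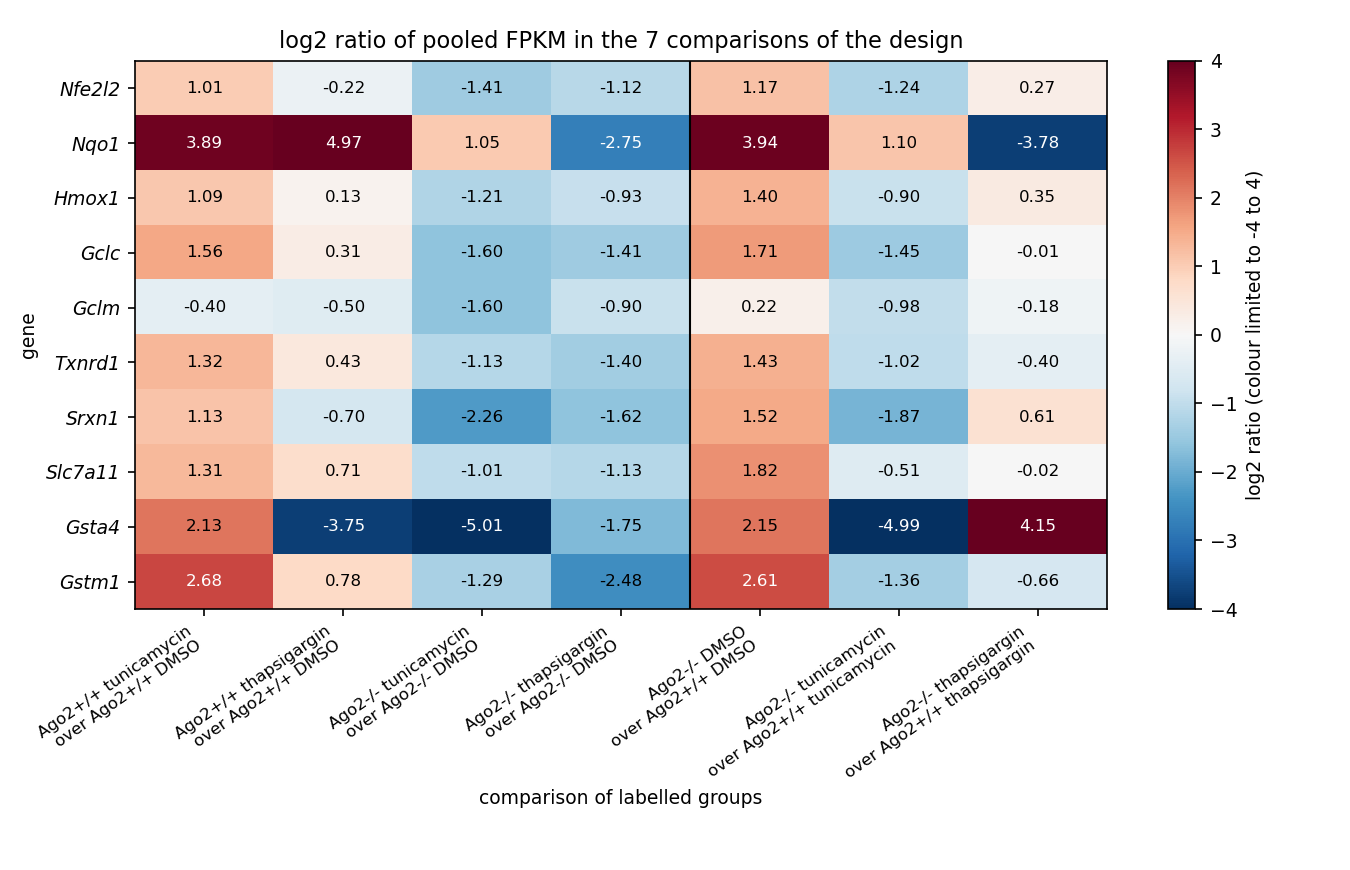
Log2 ratio of pooled FPKM (colour and number, colour limited to -4 to 4) for the 10 genes (rows) in the 4 stressor and 3 labelled genotype comparisons (columns), without a pseudocount. The Ago2+/+ tunicamycin column and the DMSO genotype column are positive for 9 and 10 of the genes, and the Ago2-/- tunicamycin column is negative for 9.

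The labelled genotypes were then compared within each treatment. These folds too compare labelled groups, and an effect of the loss of AGO2 was not tested. Under DMSO all 10 genes were higher in Ago2-/- than in Ago2+/+, and 9 of them at least 2-fold, where 10.1% of loci were. None was 2-fold lower, where 8.9% of loci were. The folds were 15.3 for Nqo1, 6.09 for Gstm1, 4.43 for Gsta4, 3.53 for Slc7a11, 3.27 for Gclc, 2.87 for Srxn1, 2.70 for Txnrd1, 2.64 for Hmox1 and 2.25 for Nfe2l2, and 1.16 for Gclm. The log2 ratio of Nqo1 was 2.2 with the pseudocount, in place of 3.94. Under tunicamycin the direction was the other way: 6 genes were at least 2-fold lower in Ago2-/-, where 10.2% of loci were, with Gsta4 at a log2 ratio of -4.99, Srxn1 at -1.87 and Gclc at -1.45. Only Nqo1 was 2-fold higher there (log2 1.10), where 11.8% of loci were, and with the pseudocount (log2 0.96) 0 genes were. Under thapsigargin Gsta4 was 17.7-fold higher in Ago2-/- and Nqo1 13.7-fold lower, and 7.91% and 10.3% of loci were at least 2-fold higher and lower. With the pseudocount their log2 ratios were 3.46 in place of 4.15 and -2.70 in place of -3.78. The other 8 genes lay between log2 ratios of -0.66 and 0.61. Comparisons within the table share groups: Ago2+/+ DMSO is the base of 3 of these 7 comparisons, so their like values are not separate evidence.

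All 15 pairs of groups were therefore set side by side, irrespective of label. Between Ago2+/+ tunicamycin and Ago2-/- DMSO, none of the 10 genes was 2-fold apart, where 2.29% of loci were. The widest of these differences was a log2 ratio of -0.62. Between Ago2+/+ thapsigargin and Ago2-/- tunicamycin, none of the 10 was 2-fold apart either, where 2.18% of loci were. Between Ago2+/+ DMSO and Ago2-/- thapsigargin only Nqo1 was (log2 -1.19, at levels below 1 FPKM), where 4.97% of loci were. Of the 7 comparisons of the design, Ago2-/- tunicamycin with Ago2-/- DMSO had all 10 genes at least 2-fold apart, where 22.7% of loci were. Ago2+/+ tunicamycin with Ago2+/+ DMSO had 9 (18.7% of loci), the DMSO groups of both genotypes 9 (19%), Ago2-/- thapsigargin with Ago2-/- DMSO 8 (19%), the tunicamycin groups 7 (22%), the thapsigargin groups 2 (18.2%) and Ago2+/+ thapsigargin with Ago2+/+ DMSO 2 (17.6%). Among pairs outside the design, Ago2+/+ thapsigargin with Ago2-/- DMSO had 8 (21.3%), Ago2+/+ tunicamycin with Ago2+/+ thapsigargin 6 (20.8%) and with Ago2-/- thapsigargin 6 (19%), Ago2+/+ DMSO with Ago2-/- tunicamycin 4 (17.7%), and both stressors in Ago2-/- 3 (18.9%). Outside the 3 close pairs, the count of the 10 genes ran from 2 to 10.

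**Figure D3:**
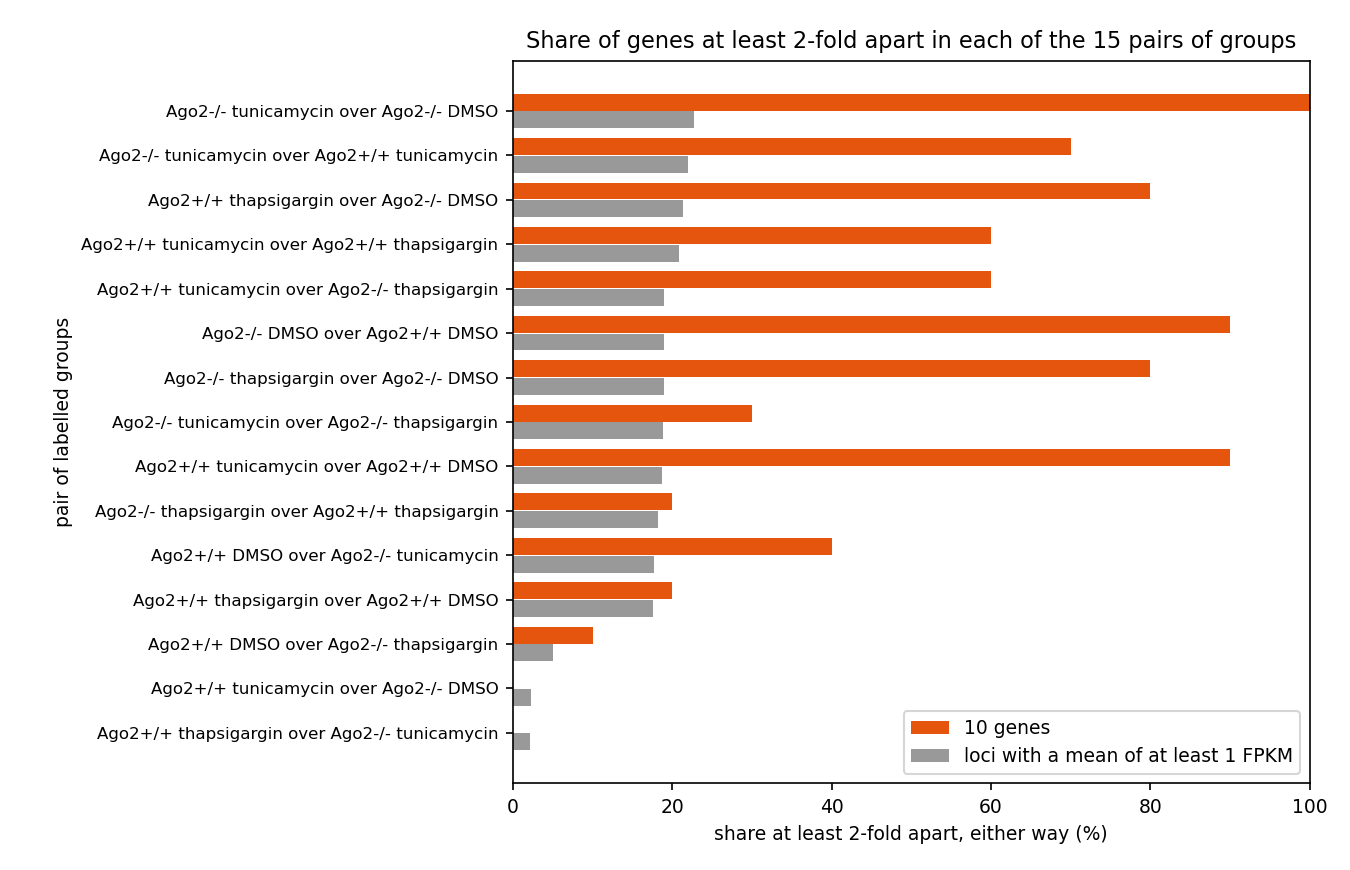
Share of the 10 genes (orange bars) and of the 11929 loci averaging 1 FPKM or more (grey bars) that were at least 2-fold apart, in percent on the horizontal axis, in each of the 15 pairs of labelled groups on the vertical axis. The 3 pairs at the foot, each joining a group labelled Ago2+/+ to one labelled Ago2-/-, have the lowest shares of both.

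The wider pathway was described with lists of 96 other genes that had a locus, of which 81 averaged 1 FPKM or more. In Ago2+/+ 22 of the 81 (27.2%) were at least 2-fold higher under tunicamycin and 1 lower (1.23%), and 12 (14.8%) were higher and 10 (12.3%) lower under thapsigargin. In Ago2-/- 6 (7.41%) were higher and 24 (29.6%) lower under tunicamycin, and 0 were higher and 24 (29.6%) lower under thapsigargin. Under DMSO 24 (29.6%) were higher in Ago2-/- and 0 lower. Under tunicamycin 8 (9.88%) were higher and 24 (29.6%) lower in Ago2-/-, and under thapsigargin 9 (11.1%) and 12 (14.8%). The background of 7.91% to 12% of loci in each direction applies here too. Ago2+/+ tunicamycin and Ago2-/- DMSO were the 2 highest groups for 32 of the 81 (39.5%), where 26.6% of all loci had these groups highest.

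Of 10 genes that control NRF2, 0 were 2-fold apart in either direction with tunicamycin in Ago2+/+, where 18.7% of all loci were. At most 2 were in any of the 7 comparisons, where 17.6% to 22.7% of all loci were. Keap1, which is named here after its values were seen, lay between 19.6 and 24.1 FPKM in all 6 groups. Sqstm1, the autophagy receptor p62 that binds KEAP1 and is itself an NRF2 target, was at 322, 484 and 267 FPKM in Ago2+/+ DMSO, tunicamycin and thapsigargin, and at 544, 290 and 342 FPKM in the corresponding Ago2-/- groups. It had the same 2 high groups as Nfe2l2, with smaller folds. Bach2, of the BACH family of repressors that compete at the response element, was at 1.07, 1.13 and 3.29 FPKM in Ago2+/+ DMSO, tunicamycin and thapsigargin, and at 3.5, 3.11 and 0.592 FPKM in Ago2-/-. Bach1 lay between 5.18 and 7.77 FPKM, lowest in Ago2-/- DMSO and Ago2+/+ tunicamycin. Mafg, a small MAF partner whose locus also holds Sirt7, was at 33.2 to 71.9 FPKM and highest in the same 2 groups.

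The detoxification list had the highest share of genes past 2-fold with tunicamycin in Ago2+/+. Of its 14 genes, 10 were at least 2-fold higher with tunicamycin in Ago2+/+ (median log2 2.01), where 9.95% of all loci were. With thapsigargin in Ago2-/- 11 were lower (median -2.08), where 10.3% of all loci were. Aldh3a1, an aldehyde dehydrogenase, was at 113 FPKM in Ago2+/+ tunicamycin and 104 in Ago2-/- DMSO and below 0.1 in each of the other 4 groups, where the lowest was 0.0158. Aox1, an aldehyde oxidase, was at 4.66 and 4.38 FPKM in these 2 groups and at most 0.67 in the others. Cbr3, a carbonyl reductase, was listed at 0 in Ago2+/+ DMSO and Ago2-/- thapsigargin and lay between 6.93 and 7.96 FPKM in the other 4 groups, so it was low in the same 2 groups as Nqo1. Ugt1a6a shares a locus with 8 other genes of the Ugt1a cluster, which was highest in Ago2-/- DMSO at 3.59 FPKM.

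Of 12 other glutathione transferases, 5 were at least 2-fold higher with tunicamycin in Ago2+/+ and none lower, where 9.95% and 8.76% of all loci were. Gsta1 and Gsta2, relatives of Gsta4, were highest in Ago2-/- DMSO at 12.0 and 4.42 FPKM and next in Ago2+/+ tunicamycin at 9.93 and 4.17 FPKM. Both were below 0.02 FPKM or listed at 0 in Ago2+/+ thapsigargin and Ago2-/- tunicamycin, the groups in which Gsta4 was low. Mgst1, a microsomal transferase, was listed at 0 in Ago2+/+ DMSO and Ago2-/- thapsigargin and was at 4.45 and 4.81 FPKM in Ago2+/+ tunicamycin and Ago2-/- DMSO. Gstt1 is counted among the 5, but only at 0.0977 against 0.253 FPKM, near the floor. It was high in other groups, with 13.5 FPKM in Ago2+/+ thapsigargin and 20.5 in Ago2-/- tunicamycin and at most 0.364 in the other 4 groups. Only the 2 groups in which it was high brought it past the filter on the mean.

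The NADPH list, which supplies the reducing power for glutathione and thioredoxin, had 2 of 6 genes past 2-fold with tunicamycin in Ago2+/+. For this comparison, which is used for each list in this paragraph, 9.95% of all loci were higher and 8.76% lower. Pgd, the second dehydrogenase of the pentose phosphate pathway, was at 328 FPKM in Ago2+/+ tunicamycin and 337 in Ago2-/- DMSO, and between 62.5 and 88.4 in the other 4 groups. G6pdx, the first and rate-limiting dehydrogenase, was at 147 and 151 FPKM in those 2 groups and between 56.0 and 65.8 in the others. Of 9 genes of heme and iron, 2 were higher and 1 lower with tunicamycin in Ago2+/+, with a median log2 ratio of -0.22. The lower one was Blvra, a biliverdin reductase, at a log2 ratio of -1.09, named after its values were seen. The higher ones were Ftl1 and Slc40a1. Ftl1, the ferritin light chain, was at 3310 and 3210 FPKM in Ago2+/+ tunicamycin and Ago2-/- DMSO and at 942 to 1162 FPKM in the others. Slc40a1, the iron exporter ferroportin, followed at 2.65 and 2.27 FPKM in the same groups against at most 0.584. Of 13 genes of the thioredoxin and peroxiredoxin list only Prdx6 was at least 2-fold higher with tunicamycin in Ago2+/+ (178 to 499 FPKM), which is near the share of all loci. In the glutathione list of 11, none was 2-fold higher there, and Gsr, the glutathione reductase, was nearest at 42.1 against 76.3 FPKM. Of 6 genes against superoxide, peroxide and metals, Mt1 and Cat were higher, at log2 ratios of 1.01 and 1.32.

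Of 8 genes of the list of ATF4 and its targets with a locus, 0 were 2-fold apart in any of the 7 comparisons, where 17.6% to 22.7% of loci were in each. Their median log2 ratio with tunicamycin in Ago2+/+ was 0.30. Ago2+/+ tunicamycin and Ago2-/- DMSO were the 2 highest groups for 2 of the 8, Trib3 and Psat1, which are named after their values were seen, where 26.6% of all loci had these groups highest. Atf4 itself was at 394, 528 and 583 FPKM in Ago2+/+ DMSO, tunicamycin and thapsigargin and at 532, 575 and 407 FPKM in Ago2-/-. Asns, asparagine synthetase, lay between 150 and 285 FPKM, highest in Ago2+/+ thapsigargin and Ago2-/- tunicamycin. Slc3a2, the heavy chain that pairs with SLC7A11, lay between 340 and 615 FPKM and was also highest in Ago2+/+ thapsigargin, unlike Slc7a11. Hspa5, the ER chaperone BiP and a marker of ER stress, named here after its values were seen, was at 4808, 6746 and 5367 FPKM in Ago2+/+ DMSO, tunicamycin and thapsigargin. In the corresponding Ago2-/- groups it was at 7682, 5155 and 3677 FPKM, so it too was highest in Ago2-/- DMSO and Ago2+/+ tunicamycin.

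**Figure D4:**
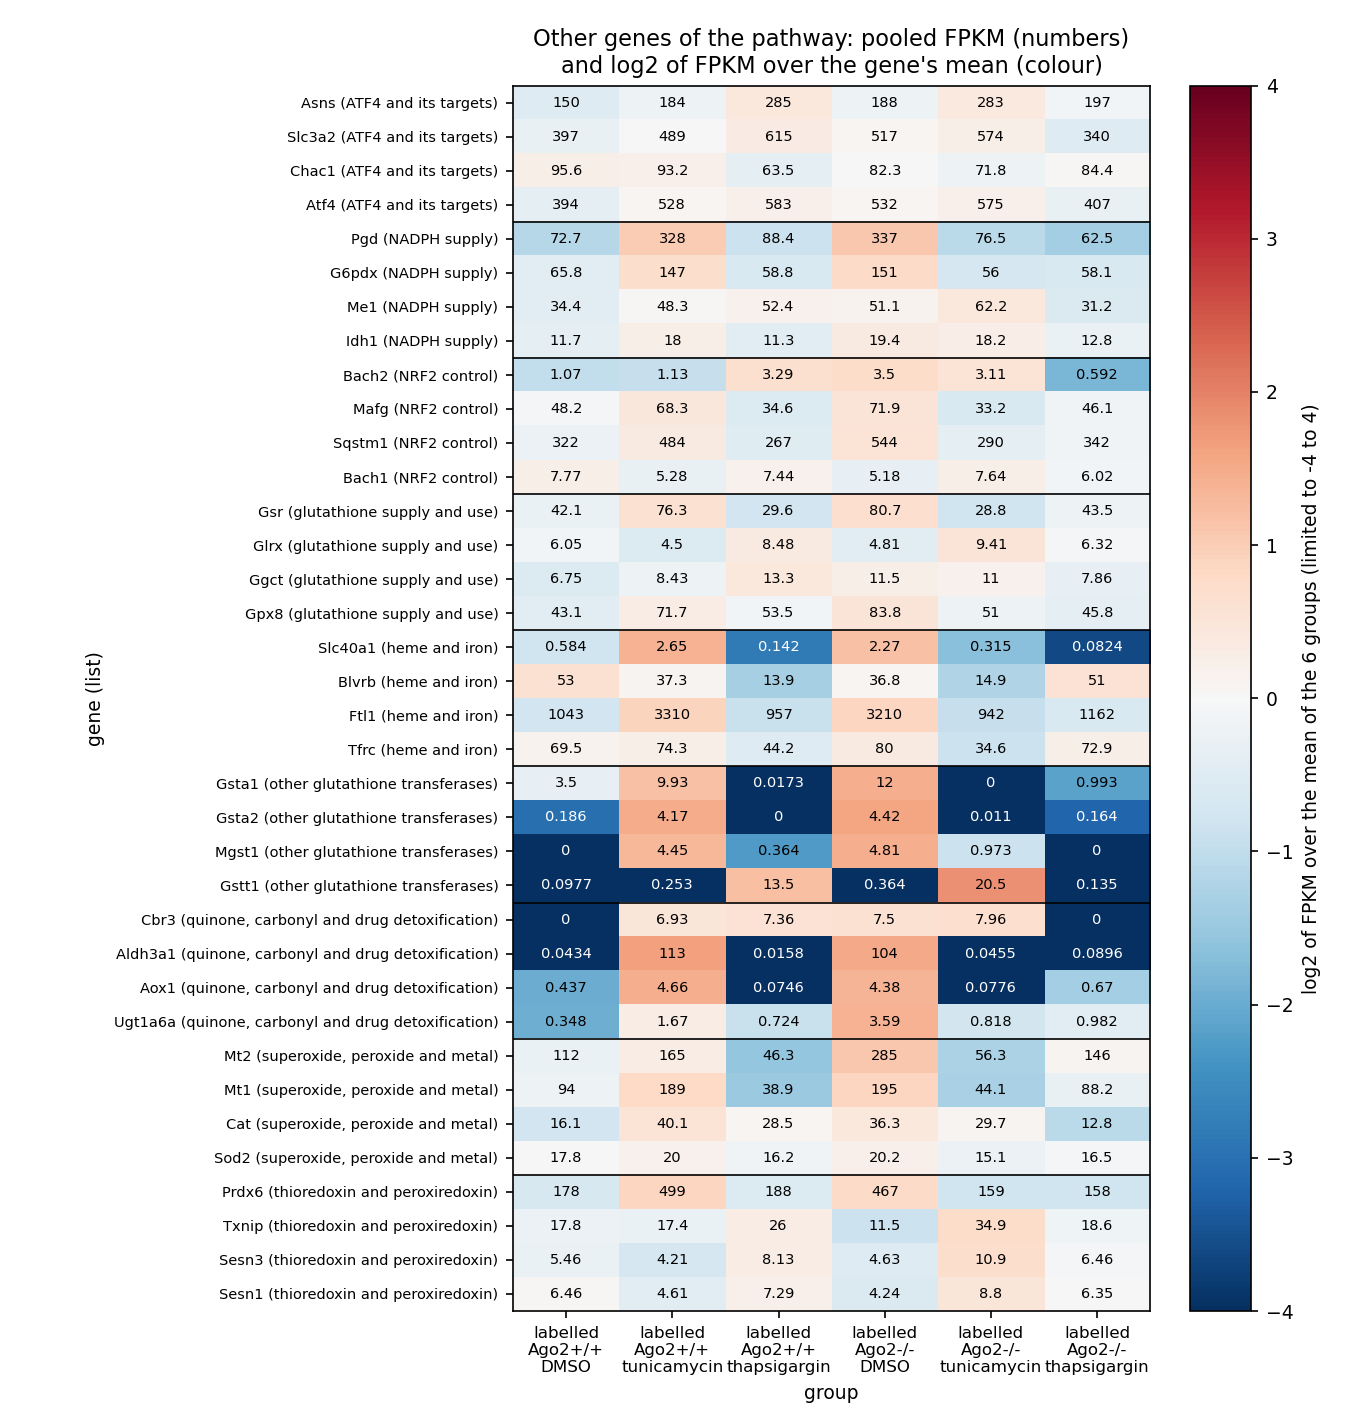
Pooled FPKM (numbers) and log2 of FPKM over the mean of the 6 groups (colour, limited to -4 to 4) of up to 4 genes from each pathway list (rows) in the 6 labelled groups (columns). Aldh3a1, Pgd, G6pdx, Ftl1 and Prdx6 are highest in Ago2+/+ tunicamycin and Ago2-/- DMSO, whereas Gstt1 is highest in Ago2+/+ thapsigargin and Ago2-/- tunicamycin.

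All other loci were ranked by Pearson's r of log2 FPKM with each gene over the 6 groups. The ranking used 2980 loci with 1 gene name, at least 1 FPKM in each group and at least a 2-fold range. Genes of the pathway were not left out of this set by name. The filter on levels in each group did remove some of them, Nqo1, Aldh3a1, Aox1, Cbr3, Gsta1, Gsta2, Mgst1 and Slc40a1 among them. The nearest to Nfe2l2 were Hsd17b10, Snai2 and Gm15706, each with r of 0.997. The nearest to Nqo1 were Pdxk, Fn1 and Ubald1 (0.997). Those of Hmox1 were Mtrf1 (0.994), Rasa1 and Gcnt4 (0.991 each), and those of Gclc were Ubash3b, Gm10501 (0.998 each) and Thoc6 (0.997). For Txnrd1 they were Gm11451 (0.999), Skil and Kcnk5 (0.998 each), and for Srxn1 Stam, Rpp38 (0.998 each) and Smug1 (0.995). Slc7a11 was nearest to Gm14288 (0.988), Zmiz1 (0.985) and Anxa9 (0.982), Gsta4 to Nbeal2 (0.999), Oxld1 and Abhd2 (0.997 each), and Gstm1 to Nfib (0.995), Zfp984 and Tenm3 (0.993 each). Gclm had no locus above 0.95, the nearest being AC137842.2 (0.94), Dancr (0.939) and Gm26397 (0.937). Of the 2980 loci, 227 passed 0.95 with Nfe2l2 and 96 with Nqo1. With 6 pooled values in 3 close pairs, such r are high for many loci.

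The cell type was checked against its markers. The 9 fibroblast markers summed to 3000 to 3955 FPKM per group. Vim was between 952 and 2634 FPKM, and S100a4, whose locus also holds S100a3 and Gm42674, between 285 and 1967. Pdgfra lay between 0.488 and 8.72 FPKM, Pdgfrb between 0.54 and 17.9, and Thy1 was listed at 0 in all 6 groups. Col1a1 was at 521 FPKM in Ago2+/+ thapsigargin and 651 in Ago2-/- tunicamycin and at 6.77 and 5.97 in Ago2+/+ tunicamycin and Ago2-/- DMSO, the groups in which most antioxidant genes were high. Col1a2, Col3a1 and Pdgfra were also lowest in the latter 2 groups. Vim went the other way and was highest there, at 2634 and 2580 FPKM. S100a4, Fn1 and Pdgfrb were intermediate there. The 4 smooth muscle markers summed to 2417 and 1800 FPKM in Ago2+/+ thapsigargin and Ago2-/- tunicamycin and to between 2.23 and 6.42 in the others, with Acta2, Tagln and Cnn1 high and Myh11 below 0.1 in every group. These are the groups in which Nqo1 and Gstt1 were highest and Gsta4 lowest. Whether separate cells carry these markers is not known, and a part of the markers in those levels was not tested. The 6 macrophage markers summed to 1.25 to 2.39 FPKM with Adgre1 listed at 0 in all groups, and the 4 endothelial markers to 0.121 to 0.465. The 4 epithelial markers summed to 0.882 and 1.33 FPKM in Ago2+/+ tunicamycin and Ago2-/- DMSO and to between 0.182 and 0.38 in the others, and their part was not tested either. In bulk RNA, fewer cells of a kind and less RNA per cell cannot be told apart.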

How the data were processed

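RNA of 18 mouse fibroblast libraries was sequenced, and the authors aligned reads with HISAT2 (2.1.0) to GRCm38 with Ensembl release 91, assembled them with StringTie (1.3.4d) and quantified them with Cuffdiff (2.2.1). Versions and build come from the submitters' processing notes, which also name FastQC (0.11.7). For library scaling and strandedness, the sources used here give nothing. The deposited FPKM is 1 value per group and locus, pooled over 3 libraries, in 772485 rows for the 15 pairs of 6 groups. The other columns hold fold changes, test statistics, p- and q-values and significance calls of the authors' own comparisons, and were not used. Columns of other samples numbered 0.

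Groups follow the library titles. The 4 libraries with conflicting genotype labels (the 3 of replicate 2 labelled Ago2+/+, and replicate 3 of Ago2-/- DMSO) could not be left out of pooled values. Replicate values were not analysed here, so no SD, test or p-value is given. Nothing in the labels says whether replicates were separate cultures. Among 9360 loci with a single transcript, 22.0% to 31.4% of low values fell no farther than 0.1 from multiples of the best step size (20% without steps), so whole reads were not recovered and depth is unknown.

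Log2 ratios were computed without a pseudocount in Python 3.11.15 (pandas 2.3.3, numpy 2.4.6, matplotlib 3.10.9) and counted at 2-fold over the 11929 loci averaging 1 FPKM or more across groups. All 10 genes passed this filter. A locus listed at 0 in 1 of both groups counted as past the fold. The counting was tested on simulated data. A pseudocount of 1, no filter, a fold of 1.5 and centring on the median of all loci were tried. Named were all 10 genes, Ago2, up to 4 genes per pathway list with the largest absolute log2 ratio in the 7 comparisons, and the 3 loci most like each gene. Genes, lists and tests were chosen with earlier results of these data known.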

Additional observations from a re-analysis of the deposited data

How the results depend on the processing

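The 18 counts of genes past the threshold (9 comparisons, 2 directions) were recomputed under 4 alternatives. Removing the filter on low values could not change these counts, because all 10 genes pass it. With centring, 18 of 18 were within 1.5 times the main count. With a pseudocount of 1 FPKM, 16 of 18 were. The 2 others concern Nqo1, which was then short of 2-fold (log2 0.92 with tunicamycin in Ago2-/-, and 0.96 for Ago2-/- over Ago2+/+ under tunicamycin), so that 0 genes were 2-fold higher in either. Within this margin, the 9 genes higher with tunicamycin in Ago2+/+ became 8 with centring and with the pseudocount (Nfe2l2 at log2 0.998 and 0.990). The 9 genes lower with tunicamycin in Ago2-/- became 8 with the pseudocount (Slc7a11 at log2 -0.96). At a fold of 1.5, 14 of 18 were within 1.5 times the main count. Thapsigargin in Ago2+/+ then had 3 genes higher and 2 lower, and Ago2-/- over Ago2+/+ under thapsigargin had 2 higher and 2 lower. The share of all loci past the threshold in either direction was 17.6% to 22.7% in the 7 comparisons, 12.9% to 17.9% with the pseudocount, 38.3% to 42.4% without the filter and 32.6% to 41.7% at a fold of 1.5. Of the 90 log2 ratios of single genes, 90 moved by less than 0.1 with centring and 66 with the pseudocount. With the pseudocount 0 changed sign. With centring 2 did, both near 0, for Ago2-/- over Ago2+/+ under thapsigargin: Gclc went from -0.014 to 0.016 and Slc7a11 from -0.016 to 0.014. The 24 that moved more belong to Nqo1, Slc7a11, Gsta4 and Gstm1.

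No paired analysis was possible because the table holds only pooled group values, and for the same reason leaving out single libraries, including the 4 with conflicting labels, was not run. Depth is unknown, so no counting error can be given for low levels such as those of Nqo1.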
